A study of Mus musculus with 2 samples.

Results

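The genes described here are 10 genes of the Lin28 and let-7 axis and of microRNA processing: Lin28a and Lin28b, the let-7 targets Trim71, Igf2bp1, Igf2bp2, Igf2bp3, Hmga1 and Hmga2, and the processing genes Dicer1 and Dgcr8. They were chosen by symbol from the deposited count table, which holds 30744 symbols, and 11 gene models carry a member symbol. Lin28b has 2 models of the same locus, with 2733 and 2483 tumour reads, and the one with more reads was kept. All 10 genes were measured, that is, had at least 20 reads over both libraries, as did 16326 of all symbols.

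Total RNA of mouse kidney was sequenced in 2 libraries, 1 per group, to ask how the circadian clockwork is altered in kidney tumours that arise during reprogramming in the animal. The first library came from a normal kidney with the genotype WT and no doxycycline, and the second from a kidney tumour with the genotype Tet-OSKM/mPer2-luc and doxycycline. The background of both animals is C57BL/6 x DBA/2 F1. In the tumour animal, doxycycline switches on the reprogramming factors Oct4, Sox2, Klf4 and c-Myc through the transactivator M2rtTA at the Rosa26 locus, and mPer2-luc reads out the clock gene Per2 through luciferase. By the protocol in the labels, the animals were chimeras made by injecting embryonic stem cells with these alleles into hybrid blastocysts, so host cells without the transgenes can be present in a tissue. That text stands with both libraries, and whether the normal kidney was chimeric, and the age and sex of the animals, are not given in the sources used here.

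MicroRNAs are cut out of long transcripts in the nucleus by the nuclease Drosha with its RNA-binding partner Dgcr8, exported, and cut again by Dicer1 into the mature form that an Argonaute protein carries to its targets. The let-7 microRNAs accumulate as cells differentiate and repress a set of growth and embryonic genes. The paralogs Lin28a and Lin28b, RNA-binding proteins of embryonic cells, bind let-7 precursors and block their processing, and are themselves repressed by let-7. In the kidney, LIN28 genes are active in nephron progenitors and are turned on in part of human Wilms tumours. Mutations of DROSHA, DGCR8 and DICER1 are also found in Wilms tumours.

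The mature sequences of the let-7 family are shown because their seed, bases 2 to 8 in capitals, sets which transcripts they pair with. The 9 distinct sequences in the RefSeq table (GRCm38.p6) share 1 seed, and 5 of them show where they differ.
let-7a: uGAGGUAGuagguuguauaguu
let-7b: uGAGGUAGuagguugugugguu
let-7d: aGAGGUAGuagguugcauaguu
let-7g: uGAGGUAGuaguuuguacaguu
miR-98: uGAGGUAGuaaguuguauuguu

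LIN28 proteins hold a let-7 precursor through the letters GGAG in the stretch between the arms of the hairpin. Of 12 let-7 family hairpins in RefSeq, 9 have GGAG there and 3 do not, namely let-7b, let-7c-2 and miR-98. A hairpin of each kind is shown with the seed and, where present, GGAG in capitals. The let-7g hairpin lies at chr9:106178840-106178927 on the plus strand and the let-7b hairpin at chr15:85707319-85707403 on the plus strand.
let-7g hairpin: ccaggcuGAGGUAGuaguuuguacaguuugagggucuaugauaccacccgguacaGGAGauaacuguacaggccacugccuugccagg
let-7b hairpin: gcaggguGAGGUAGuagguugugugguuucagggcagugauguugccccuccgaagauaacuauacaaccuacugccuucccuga

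Target sites of let-7 carry the letters CTACCTC, the complement of the seed, most often in the 3′ untranslated region (UTR). In the longest annotated 3′ UTR of each gene (GENCODE M21, same assembly), these letters were present at least once in 8 of 10 genes, that is, in every one apart from Dicer1 and Dgcr8. They occurred 21 times in all, and 13 of these were followed by an A. Hmga2, Igf2bp1, Lin28b and Trim71 had 4 matches each, Lin28a had 2, and Igf2bp2, Igf2bp3 and Hmga1 had 1. Across 20798 annotated 3′ UTRs of at least 30 bases 9.11% held a match, rising from 3.23% of those under 1000 bases to 30.5% of those of 4000 bases or more. These genes are known as let-7 targets partly because of such matches, so their number is no independent finding. For 1 site in each gene, 30 bases of the sense strand are shown with the match in capitals.
Lin28a, chr4:134005189-134005218, minus strand: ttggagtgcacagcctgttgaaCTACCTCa
Lin28b, chr10:45381022-45381051, minus strand: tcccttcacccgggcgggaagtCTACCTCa
Trim71, chr9:114512472-114512501, minus strand: aaagtacaacattgcctaagtcCTACCTCa
Igf2bp1, chr11:95961778-95961807, minus strand: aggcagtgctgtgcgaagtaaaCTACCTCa
Igf2bp2, chr16:22059473-22059502, minus strand: gagaaaaacacacaaataaaagCTACCTCa
Igf2bp3, chr6:49086787-49086816, minus strand: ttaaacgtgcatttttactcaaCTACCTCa
Hmga1, chr17:27563270-27563299, plus strand: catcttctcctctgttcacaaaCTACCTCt
Hmga2, chr10:120364224-120364253, minus strand: agggggcgccgacattcaatttCTACCTCa

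**Figure D1:**
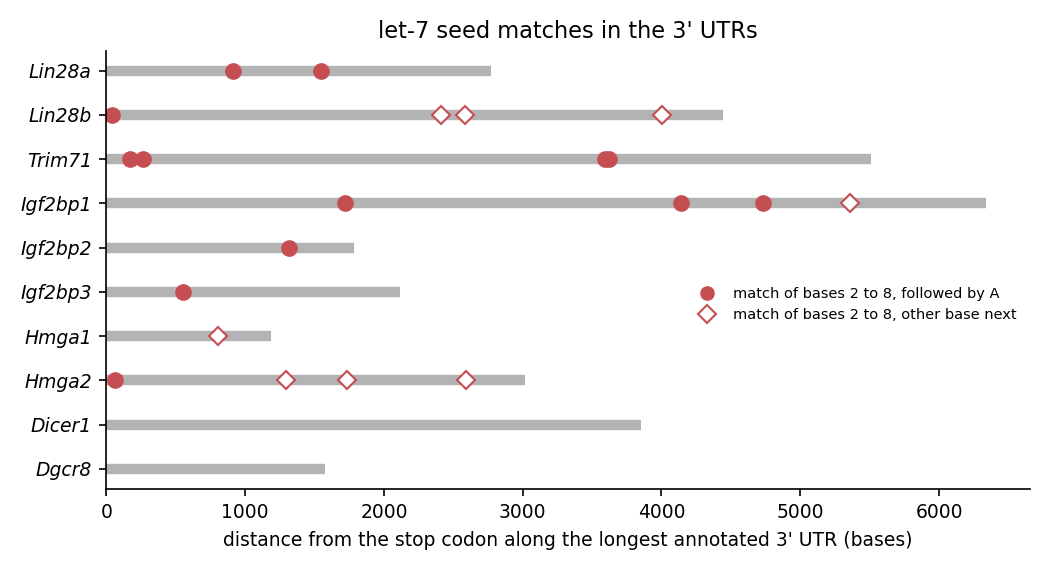
The grey bars give the longest annotated 3′ UTR of each of the 10 genes in bases from the stop codon, and the marks give matches to let-7 bases 2 to 8, filled where an A follows. Matches stand in 8 genes, 4 each in Lin28b, Trim71, Igf2bp1 and Hmga2, and the bars of Dicer1 and Dgcr8 carry none.

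Of the 21 matches 19 lie inside the gene models over which the authors counted reads. The other 2 are neighbouring matches far down the 3′ UTR of Trim71, beyond the end of its model.

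All 10 genes were higher in the tumour library. Their ratios ranged from 2.46-fold for Dicer1 to 11593-fold for Lin28a, with a median log2 ratio of 7.50, Lin28b being taken at its lower bound, against 0.08 for all measured genes. A gene was called higher or lower when the tumour-to-normal ratio of its counts, scaled by TMM, was at least 2-fold and its 95% counting interval excluded 1. By that rule 31.2% of all measured genes were higher and 28.0% lower, so a call alone sets a single gene apart little. The sizes of the ratios say more. The 10 genes were chosen with earlier results of these data known, so the number called among them is no independent finding. With 1 library per group there is no replicate check and no p-value, and the intervals, which cover counting error only, compare these libraries and not the conditions. With plain CPM in place of TMM the calls over all genes went from 5099 higher and 4566 lower to 6876 and 3297, and the median log2 ratio of all genes rose by 0.56.

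The libraries differed in much else. Exon reads totalled 29258428 for the normal kidney and 20836819 for the tumour. Of 13 nephron markers 12 were lower in the tumour, their summed level falling from 29560 to 923 CPM, the exception being the podocyte gene Nphs1. All 7 markers of pluripotent cells and all 5 of dividing cells were higher, from 26.5 to 1008 CPM and from 56.3 to 2571 CPM. Nearly all of the first sum in normal kidney was Esrrb, at 26.4 CPM, and Pou5f1, Sox2, Zfp42, Dppa4 and Utf1 had 0 reads there. In the tumour Pou5f1 (Oct4) had 449 CPM and Sox2 151 CPM. Reads of the doxycycline-driven factors can enter these counts, and their part was not tested. Of 4 measured immune markers 2 were higher, with summed levels of 78.9 and 90.9 CPM over the 6 listed. Of 4 endothelial markers 2 were lower (323 and 99.9 CPM), and of 5 fibroblast and smooth muscle markers 2 were higher (248 and 521 CPM). The part of cell makeup in the ratios below was not tested, and in bulk tissue more cells of a type and more RNA per cell cannot be told apart.

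**Figure D2:**
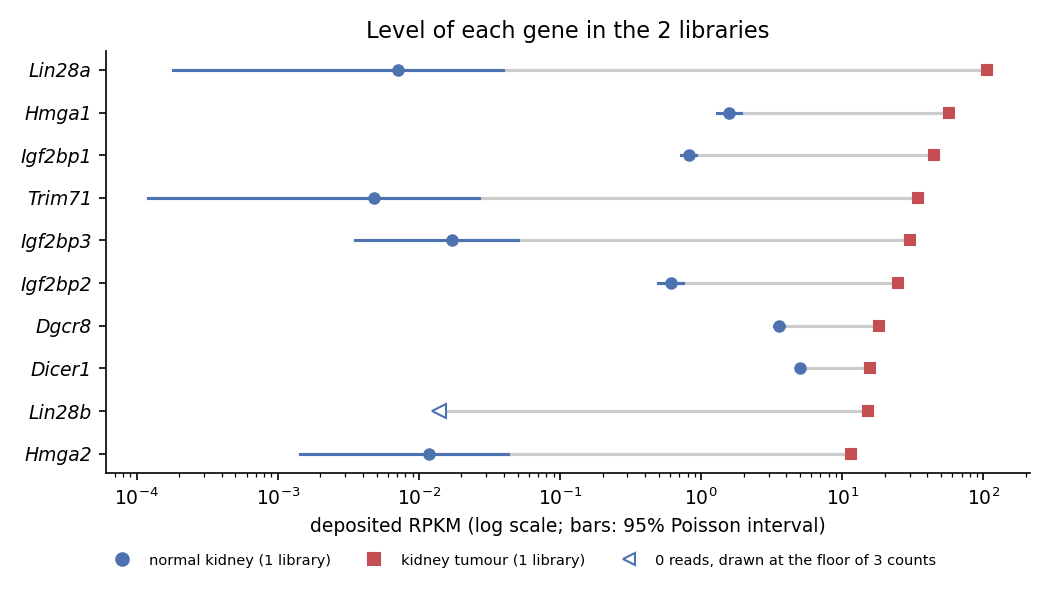
Each line joins the deposited RPKM of a gene in the normal kidney (circles) and in the tumour (squares) on a log scale, with 95% Poisson intervals. In the normal library 5 of the genes lie at or under 0.0171 RPKM and Dicer1 is highest at 4.995 RPKM, Lin28b with 0 reads being drawn at its floor of 3 counts, whereas in the tumour all lie between 11.6 and 105 RPKM.

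Lin28a (chromosome 4, 134003330 to 134018816, minus strand) had a single read (1) in normal kidney and 12152 reads in the tumour, or 0.0415 and 481 CPM. The ratio was 11593-fold with an interval of 2080 to 457931, a width that comes from the single normal read. It was the highest ratio of all 16326 measured genes, although genes with 0 normal reads are held at a floor of 3 counts and can rank below a gene with 1. Its paralog Lin28b (chromosome 10, 45376619 to 45470201, minus strand) had 0 and 2733 reads. Against the floor of 3 counts per library it was at least 869-fold higher, and the lower limit of the counting interval was 706-fold. Per length, Lin28a stood at 105 RPKM in the tumour and Lin28b at 15.3 RPKM, so that Lin28a made up 87.3% of their summed RPKM.

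The genes with levels in both libraries most like those of Lin28a were L1td1, Zdbf2, Trim71 and Nanog. Likeness was the larger of the differences in log2 CPM in the normal and the tumour library, and ran from 0.55 for L1td1 to 1.43 for Nanog. These 4 genes had 1 normal read each, as Lin28a did, so their likeness over 2 libraries is that of the tumour level. Next, 7 genes tied at 1.58, which is the distance in the normal library between 1 read and 3. They were Igf2bp3, with 3 normal reads, and Dppa5a, H19, Pou5f1, Sall4, Tdgf1 and Trh, whose 0 normal reads were set to the floor of 3. By the tumour level alone, Trh and Pou5f1 differed from Lin28a by 0.09 and 0.10 in log2 CPM, and Dppa5a by 0.90. Nanog, Pou5f1 and Dppa5a have near-identical copies elsewhere in the genome, which leaves their counts uncertain. Reads of the doxycycline-driven Oct4 can also enter the count of Pou5f1.

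Trim71 encodes a ubiquitin ligase of the TRIM family that also represses messenger RNAs in embryonic cells, and its worm ortholog lin-41 is a classical let-7 target. In mouse (chromosome 9, 114511273 to 114564369, minus strand) the count was 1 in normal kidney and 5888 in the tumour, or 0.0415 and 233 CPM. The ratio was 5617-fold (interval 1008 to 221900), the fourth highest of all measured genes. Lin28a, Lin28b and Trim71 thus had at most 1 read in normal kidney and at least 2733 in the tumour.

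The Igf2bp proteins bind and stabilise messenger RNAs, among them Myc, and are made mainly before birth. Igf2bp1 (chromosome 11, 95957164 to 96005944, minus strand) had 275 and 12415 reads, at 11.4 and 491 CPM, and was 43.1-fold higher (38.2 to 48.7). Igf2bp2 (chromosome 16, 22059009 to 22163299, minus strand), the member most often found in adult tissue, had 96 and 3185 reads, at 3.98 and 126 CPM, and was 31.7-fold higher (25.8 to 39.2). Igf2bp3 (chromosome 6, 49085218 to 49214954, minus strand) had 3 and 4306 reads, at 0.124 and 170 CPM, and was 1369-fold higher (468 to 6642). The makeup of the family therefore differed between the libraries: Igf2bp3 took 1.19% of the summed RPKM of the 3 genes in normal kidney and 30.1% in the tumour. Igf2bp1 was first in both, with 56.4% and 45.0%, and the sum itself stood at 1.44 and 99.4 RPKM.

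Hmga1 and Hmga2 encode small chromatin proteins that bind AT-rich DNA through AT-hooks and are abundant in embryonic and tumour cells. Hmga2 is a textbook let-7 target with several sites. Hmga1 (chromosome 17, 27556574 to 27563672, plus strand) had 106 and 3135 reads, at 4.40 and 124 CPM, and was 28.2-fold higher (23.2 to 34.6). Hmga2 (chromosome 10, 120361275 to 120476935, minus strand) had 2 and 1600 reads, at 0.0829 and 63.3 CPM, and was 763-fold higher (211 to 6307). Hmga1 held 99.3% of their summed RPKM in normal kidney and 83.0% in the tumour.

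Of the other high mobility group genes, the HMGB and HMGN families, 3 of 7 were higher and none lower, with a median log2 ratio of 0.96. That is 42.9% higher, against 31.2% of all measured genes. With plain CPM 6 of the 7 were higher. Genes of these families have processed copies elsewhere in the genome, which can share reads and leave their counts uncertain. Hmgb2, a chromatin protein of dividing cells, was 17.7-fold higher (15.3 to 20.7), Hmgn2 4.12-fold and Hmgn1 3.05-fold. Hmgn3 and Hmgn5 had log2 ratios of 0.96 and -0.48, the second turning to 0.07 with plain CPM.

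Dicer1 and Dgcr8 differed far less. Dicer1 (chromosome 12, 104687742 to 104751952, minus strand) had 1983 reads in normal kidney and 5116 in the tumour, at 82.2 and 202 CPM, and was 2.46-fold higher (2.34 to 2.59). As much or more was seen for 26.8% of all measured genes. Dgcr8 (chromosome 16, 18253965 to 18289168, minus strand) had 605 and 2527 reads, at 25.1 and 99.96 CPM, and was 3.98-fold higher (3.64 to 4.36). The log2 ratio of Dgcr8 exceeded that of Dicer1 by 0.70 (0.55 to 0.84, for counting error). These are also the genes of the 10 with no let-7 match in the 3′ UTR. They were listed as processing genes and the others as Lin28 or let-7 target genes, so this split came with the choice.

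The order of the levels per length differed between the libraries, although Hmga1, Igf2bp1 and Igf2bp2 kept their order among themselves. In the normal kidney it ran, in deposited RPKM, from Dicer1 (4.995), Dgcr8 (3.56) and Hmga1 (1.57) to Igf2bp1 (0.813) and Igf2bp2 (0.612). Igf2bp3, Hmga2, Lin28a, Trim71 and Lin28b followed at 0.0171 RPKM or less, and the intervals of the ratios between these neighbours all included 1. In the tumour Lin28a led at 105 RPKM, followed by Hmga1 (56.6), Igf2bp1 (44.7), Trim71 (34.2), Igf2bp3 (29.97) and Igf2bp2 (24.7). Dgcr8 (18.1), Dicer1 (15.7), Lin28b (15.3) and Hmga2 (11.6) came last. Every neighbour in the tumour differed beyond counting error, with the exception of Dicer1 and Lin28b, whose ratio of 1.03 had an interval of 0.982 to 1.08. Lin28a ranked 325th among the measured genes by tumour RPKM and 15594th by normal RPKM.

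Genes of microRNA processing were higher in the tumour library as well, by smaller ratios. Of 20 listed genes, Dicer1 and Dgcr8 included, 14 were higher, none lower and 6 neither, with a median log2 ratio of 1.35. That is 70% higher, against 31.2% of all measured genes. Hnrnpa1, an RNA-binding protein that acts on some precursors, was 8.99-fold higher (8.50 to 9.51), and Zcchc11 5.53-fold (5.01 to 6.12). Ran, the GTPase that powers nuclear export, was 5.09-fold higher (4.86 to 5.34), and Khsrp, which promotes let-7 maturation, 4.65-fold (4.34 to 4.98). Hnrnpa1 and Ran also have processed copies that can share reads. Drosha, chosen after its values were seen as the partner of Dgcr8, had 904 and 4350 reads and was 4.59-fold higher (4.27 to 4.94). Its log2 ratio exceeded that of Dgcr8 by 0.20 (0.04 to 0.37).

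The terminal uridylyl transferases that LIN28 proteins recruit to let-7 precursors went apart. Zcchc11, also named TUT4, had 469 reads in normal kidney and 2720 in the tumour. Zcchc6, also named TUT7, had 2495 and 1518 reads and a log2 ratio of -0.78, short of a call. The difference between them was 3.25 on the log2 scale (3.08 to 3.42), and per length Zcchc6 was above Zcchc11 in the normal library (11.2 and 1.93 RPKM) and below it in the tumour (8.29 and 13.6 RPKM). Dis3l2, the nuclease that degrades uridylated let-7 precursors, had 895 and 862 reads and a log2 ratio of -0.12 that became 0.44 with plain CPM.

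Among 18 genes of Argonaute proteins and the silencing machinery 5 were higher, none lower and 13 neither, with a median log2 ratio of 0.88. The share higher, 27.8%, was near the 31.2% of all measured genes, of which 28.0% were lower. The higher genes were the decapping enzyme Dcp2 at 2.88-fold, the deadenylase scaffold Cnot1 at 2.66-fold, Ago1 at 2.62-fold, the slicer Ago2 at 2.49-fold and the deadenylase subunit Pan2 at 2.14-fold. The Argonaute genes were divided, since Ago3 and Ago4 had log2 ratios of -0.34 and -0.60. Ipo8 and Tnrc6b stood at -0.26 and -0.03, and Ago3, Ipo8 and Tnrc6b turned positive with plain CPM. Many of the 13 lie just under 2-fold, and the number higher rose to 12 with plain CPM.

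**Figure D3:**
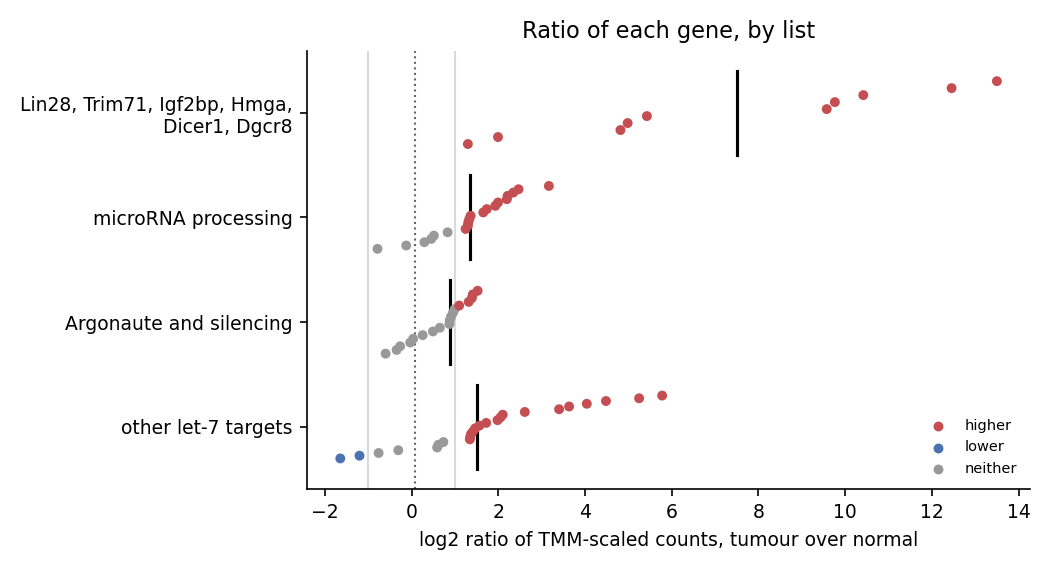
Each point is the log2 ratio, tumour over normal after TMM scaling, of 1 measured gene in 4 lists, and the black bars are the list medians of 7.50, 1.35, 0.88 and 1.52. The dotted line is the median of all measured genes, 0.08, and the grey lines mark 2-fold; Dicer1 and Dgcr8 are also in the processing list.

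Other genes described as let-7 targets were mostly higher: 17 of 24, with 2 lower, 5 neither and a median log2 ratio of 1.52. The shares were 70.8% higher and 8.33% lower, against 31.2% and 28.0% of all measured genes. Myc, named here as a doxycycline-driven factor, was among the higher genes, with 73 and 468 reads. Reads of the doxycycline-driven c-Myc can enter its count, and their part was not tested. Igdcc3, a cell surface protein of the immunoglobulin superfamily, had 5 and 288 reads and was 54.9-fold higher (23.3 to 171). The Myc family gene Mycn had 51 and 2033 reads and was 38.0-fold higher (28.8 to 51.3), the nuclear receptor Nr6a1 243 and 5705 reads and 22.4-fold (19.7 to 25.6), and the repressor Hic2 108 and 1865 reads and 16.5-fold (13.6 to 20.2). The lower genes were the insulin receptor Insr, 3.12-fold (2.96 to 3.30), and the related receptor Igf1r, 2.30-fold (2.21 to 2.39), the second short of 2-fold with plain CPM. Ccnd1 and Tgfbr1 had log2 ratios of -0.76 and -0.31, and Tgfbr1 turned to 0.25 with plain CPM. Of these 24 genes 17 had a let-7 match in the 3′ UTR, and both lower genes were among them.

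Matches alone went with small differences. Without the 10 genes, the 12712 measured genes with no let-7 match in the 3′ UTR had a median log2 ratio of 0.08, and 31.0% of them were higher. With 1 match the median was 0.11 over 1313 genes, with 2 it was 0.16 over 158 genes, and with 3 or more it was 0.90 over 22 genes, of which 45.5% were higher; 2 of the 22, Nr6a1 and Hic2, are among the let-7 targets above. The median 3′ UTR length rose along these classes from 1058 to 4460 bases. Among 3′ UTRs of 4000 bases or more, the medians were -0.0034 for 797 genes with no match and 1.32 for 13 genes with 3 or more. Among those of 2000 bases or more but under 4000, they were 0.01 for 2580 genes with no match, -0.43 for 69 genes with 2 and 0.15 for 8 genes with 3 or more, so that the higher median was not seen at this length.

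**Figure D4:**
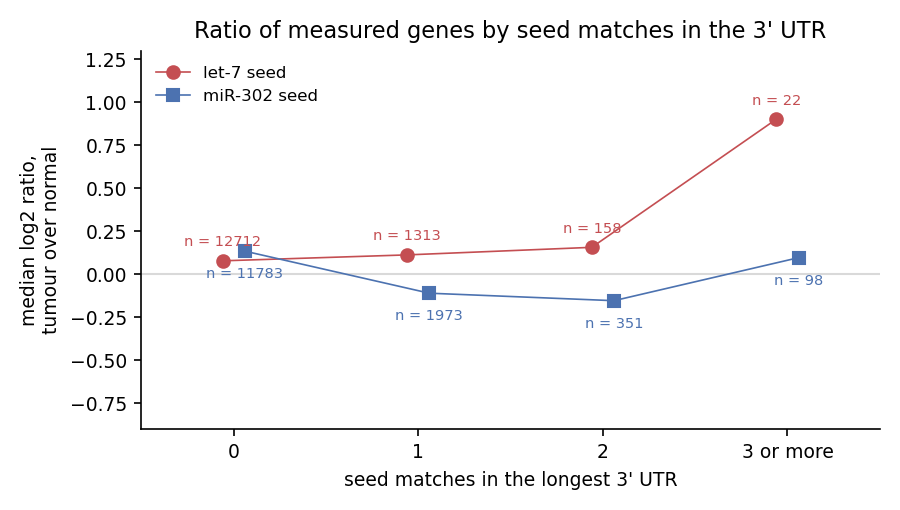
The median log2 ratio, tumour over normal, of measured genes is plotted by the number of seed matches in the longest 3′ UTR for let-7 (circles) and miR-302 (squares), without the 10 genes; n is the number of genes. For let-7 the medians with 0, 1 and 2 matches lie between 0.08 and 0.16 and that of 22 genes with 3 or more at 0.90, while for miR-302 the medians lie between -0.15 and 0.13.

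Only 12 annotated 3′ UTRs had 4 or more let-7 matches, and all belong to measured genes. They include Hmga2, Igf2bp1, Lin28b and Trim71. Of the other 8, named after their values were seen, 4 were higher (31.2% of all measured genes were), 1 lower and 3 neither. The higher were Trim6, a ubiquitin ligase of the TRIM family, with 19 and 1498 reads at 75.2-fold (48.0 to 125), Nr6a1, Hic2, and Ptafr, a receptor of platelet-activating factor, with 16 and 64 reads at 3.82-fold (2.18 to 7.07). Nudt12, a peroxisomal hydrolase of NAD(H) with 7 matches, had 2685 and 242 reads and was 11.6-fold lower (10.2 to 13.3). Mcf2l, with 7 matches that are all followed by an A, had a log2 ratio of -0.54, D10Wsu102e 0.97 and Zbtb37 0.24. The annotated 3′ UTRs of D10Wsu102e and Zbtb37 are 122583 and 16999 bases long, and matches become more frequent with length.

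Mature let-7 was not measured by these libraries, and the models of its hairpins, with deposited lengths of 82 to 107 bases, held few reads. Over 10 let-7 family hairpin models the summed counts were 40 for normal kidney and 35 for the tumour, a ratio of 0.835 with an interval of 0.515 to 1.35, so no difference was detectable at this depth. The sum leaves out let-7b and let-7c-2, which are not analysed here. The largest single counts were 18 and 11 for let-7f-1. Of 4 let-7 host genes with a model none was higher, against 31.2% of all measured genes, and with plain CPM 3 were higher. Lower was 1 gene, or 25%, near the 28.0% of all measured genes. It was Mirlet7bhg (chromosome 15, 85703773 to 85707524, plus strand), whose model spans the hairpins of let-7c-2 and let-7b, with 145 and 17 reads and 8.94-fold lower (5.39 to 15.8). Those are hairpins without GGAG, as seen in the let-7b sequence above. Wdr82, Huwe1 and Mir99ahg had log2 ratios of 0.80, 0.74 and 0.58.

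Of 6 genes listed for microRNAs of embryonic and dividing cells, as hosts or at the same locus, 3 had a model. Of these 2 were measured, and both were higher, as were 31.2% of all measured genes. Mir17hg, the host of the miR-17 to miR-92 cluster, had 122 and 1707 reads and was 13.3-fold higher (11.1 to 16.2). Larp7, whose gene surrounds the miR-302 cluster, had 534 and 2564 reads and was 4.58-fold higher (4.17 to 5.04). The 5 hairpin models of miR-302 and miR-367 lie on the strand opposite to Larp7, which is therefore not their host transcript. These hairpin models held 0 reads for normal kidney and 132 for the tumour. That is at least 42.0-fold more over the group against its floor of 3 counts, with 33.7-fold as the lower limit of the counting interval. Only 1 of the 5 models, that of miR-302a with 79 tumour reads, was measured. The mature miR-302 sequence is shown for its seed, in capitals, which differs from that of let-7.
miR-302b: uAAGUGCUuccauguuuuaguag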

How the data were processed

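For 2 total RNA libraries the authors deposited raw exon counts of 32958 gene models (UCSC knownCanonical), with totals of 40408775 and 33169818 reads per the file headers. The deposited RPKM values equalled count over model length and header total within 1.80e-06. HOMER, STAR 2.5.0c, bcl2fastq and the build mm10 are named in the submitters' processing notes, and the labels name ribosomal RNA depletion and a stranded kit. The handling of multiply mapped reads and the strand setting of counting are not given in the sources used here.

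Where a symbol had several models, the one with most reads was kept (708 of 30744 symbols). Library sizes were scaled over the whole table with TMM (edgeR 4.0.16, R 4.3.3; factors 0.824 and 1.21), and CPM values are TMM-scaled. Ratios carry exact conditional (Clopper-Pearson) 95% intervals, levels exact Poisson intervals and differences of log2 ratios normal approximations from the counts. All of these cover only counting error, and PCR duplicates were not separated. A count of 0 was set to 3 for ratios (0.124 CPM normal, 0.119 CPM tumour). No p-value was computed, as each group has 1 library. On simulated counts of 16326 genes for this comparison, the rule recovered 200 of 200 genes changed 4-fold, called 50 unchanged genes, and 95.7% of intervals held the true fold. The simulated counts were Poisson draws, as the intervals assume, with no spread between samples. They check the calculation only and give no rate of false calls for tumour against normal kidney. UTR sequences came from GENCODE M21 and microRNA sequences and promoters from RefSeq (GRCm38.p6), both the assembly of mm10, and 87.1% of measured genes had a 3′ UTR of at least 30 bases. Alternatives were plain CPM, header totals, DESeq2 1.42.0 size factors, RPKM plus 0.1 or 1, summed models, a floor of 1, TMM over all models and no minimum of reads. Members and lists were chosen with earlier results of these data known. Named genes are all members, in each list the 4 largest ratios in each direction with a mean of at least 1 CPM, genes that complete a count of 5 or fewer, and the 5 genes nearest to Lin28a. Python 3.11.15, numpy 2.4.6, pandas 2.3.3, scipy 1.17.1 and matplotlib 3.10.9 were used.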

Additional observations from a re-analysis of the deposited data

How the results depend on the processing

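The 10 genes were higher by at least 2-fold under each of 9 settings. Scalings moved every log2 ratio by at most 0.56, whereas RPKM plus 1, which shrinks ratios of genes near 0, gave 6.72 for Lin28a, 5.13 for Trim71, 4.02 for Lin28b and 3.63 for Hmga2. A floor of 1 count raised Lin28b to 11.35. The number of higher Argonaute and silencing genes was 5 with TMM and 12 with plain CPM, 11 with header totals, 10 with RPKM plus 0.1 and 10 with RPKM plus 1. The number of lower let-7 targets was 2 with TMM and 1 with plain CPM, header totals, RPKM plus 0.1 and RPKM plus 1, the gene lost being Igf1r. Counts for other lists and for all genes were added after seeing the data. The number of higher HMGB and HMGN genes was 3 with TMM and 6 with plain CPM, header totals, RPKM plus 0.1 and RPKM plus 1. The number of higher let-7 host genes was 0 with TMM, 3 with plain CPM, and 2 with header totals, RPKM plus 0.1 and RPKM plus 1. Over all genes, 4566 were lower with TMM and 2758 with RPKM plus 1. Every other count of these lists and of all genes stayed within 1.5 times under the settings run. No replicate could be left out and no paired analysis was possible because each group has 1 library. Depth limits Lin28a, Lin28b, Trim71, Igf2bp3 and Hmga2, whose ratios rest on 0 to 3 normal reads, and the hairpin models.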

Other observations

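Genes with 1 or 2 seed matches of miR-302, the letters AGCACTT, had slightly lower ratios than genes with none. Without the 10 genes, 11783 measured genes with no match in the 3′ UTR had a median log2 ratio of 0.13 and 32.3% were higher. The 1973 genes with 1 match had a median of -0.11 with 24.8% higher, 351 genes with 2 had -0.15, and 98 genes with 3 or more had 0.10 with 18.4% higher. The share lower was 27.8% with no match and 17.3% with 3 or more. Among 3′ UTRs of 4000 bases or more, the median was 0.09 for 536 genes with no match and 0.27 for 72 with 3 or more. Among those of 2000 bases or more but under 4000, it was 0.06 for 2173 genes and -0.33 for 24. The median 3′ UTR length of the classes ran from 964 to 5485 bases, and a change of library scaling shifts all classes alike. Across 20798 annotated 3′ UTRs, 14.8% held the letters, and of the 10 genes Igf2bp1, Lin28b and Trim71 held 1 match each.

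Promoter sequences, 250 bases before to 50 after the start, were in the RefSeq table for 9 of the 10 genes. The E-box CACGTG, read on both strands, was in the windows of Lin28b and Igf2bp3, with 1 and 2 matches, and in 7.15% of 32851 promoters. The octamer ATGCAAAT was in that of Hmga1 alone among the 9, and in 1.74% of all. The GC box GGGCGG was in 7 of 9 and in 35.7% of all. GC content of the windows ran from 39.0% for Lin28b to 77.3% for Dicer1, against a median of 52.7% over all promoters.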
